A study of Mus musculus with 6 samples.

Results

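The ephrin, semaphorin, netrin and SLIT guidance genes, with their Eph, plexin, ROBO and UNC5 receptors, were described in FLK1+ mesodermal cells with and without the transcription factor SCL. They were taken by symbol from the deposited table, in which 55 of 14005 gene rows matched, for 54 symbols because Efna5 is listed under 2 identifiers. The 55 comprise 15 semaphorins, 8 plexins, 10 Eph receptors, 9 ephrins, 4 ROBO receptors, 3 SLITs, 3 UNC5 receptors and 3 netrins. The study sequenced total RNA from FLK1+ cells isolated at day 3.5 from embryoid bodies, aggregates in which embryonic stem (ES) cells differentiate. WT cells were of the J1 mouse ES cell line and Scl-/- cells lacked both copies of Scl (Tal1), the regulator that specifies blood from mesoderm. There were 3 libraries of each genotype, and replicates 1, 2 and 3 stand for separate differentiations. The labels give the strain as C57Bl/6 X Sv129 for 3 libraries and with another number after Sv for the other 3. FLK1+ cells were recovered on magnetic columns, so they are a mixed mesodermal population, and all differences between the genotypes are differences between one WT and one mutant ES cell background.

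Guidance molecules were first known from growing axons and also steer blood vessels and mesodermal cells. Ephrins on one cell bind Eph receptors on its neighbour and both cells receive a signal; semaphorins act on plexins, the secreted class 3 members mostly together with neuropilins. Netrins bind DCC, neogenin and the UNC5 receptors, and SLITs bind ROBO receptors. In vessels ephrin-B2 marks arteries and EphB4 marks veins, and SEMA3E with plexin-D1, ROBO4 and UNC5B act in endothelium.

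The libraries held between 38623641 and 47621120 reads on the listed genes, as inferred from the spacing of the low values, so that the lowest value of any guidance gene, 1.25 CPM (a gene's read count scaled to a common library size), stands for 55 reads. Values below are CPM, in the order of replicates 1, 2 and 3. Tal1 was at 303, 182 and 306 CPM in WT and at 9.35, 5.68 and 5.87 CPM in Scl-/- libraries, which fits the labels. Of 9 measured endothelial markers all 9 were lower in Scl-/- cells, with a summed level of 205 to 497 CPM in WT and 40.2 to 110.0 CPM in Scl-/- libraries. Of 7 blood markers all 7 were lower (104 to 169 CPM summed, against 15.6 to 30.7 CPM). Of 7 FLK1+ mesoderm markers 6 were higher (all 7 summed, 1597 to 2004 CPM against 2023 to 2885 CPM). Kdr, which encodes FLK1, was lower (mean 856 CPM in WT and 770 CPM in Scl-/- cells). In such bulk samples fewer cells of a type and less RNA per cell cannot be told apart. Markers of paraxial mesoderm (5 of 6 listed, summed level 18.7 to 84.7 CPM in WT and 22.0 to 151 CPM in Scl-/- libraries) and of epiblast (5 of 6, 86.8 to 156 and 94.98 to 239 CPM) were present. Of the paraxial markers 3 were higher and 2 lower, and of the epiblast markers 4 were higher and 1 lower. With the replicate block described below the higher ones were called, beside 6.04% of all genes, and the lower ones were not. The 4 of 7 cardiac markers listed summed to 20.7 to 29.2 CPM in WT and 33.6 to 47.8 CPM in Scl-/- libraries. The 2 of 6 endoderm markers summed to 15.7 to 20.6 and 6.60 to 14.6 CPM, and neither sum overlapped between the genotypes. Both lists were split in direction. Myl7 (mean 5.30 CPM in WT and 19.96 CPM in Scl-/- cells) and Actc1 were higher in Scl-/- cells. Nkx2-5 (3.80 and 3.23 CPM) and Hand2 (12.6 and 12.2 CPM) were lower by little. With the replicate block Myl7 and Actc1 were called higher, while Nkx2-5 and Hand2 were not called. Of the endoderm markers Trh was lower (16.8 and 8.27 CPM). Cer1, at most 2.88 CPM in any library, was higher. Pax6 was the only 1 of 5 neural ectoderm markers in the table, and none of 4 neural crest markers was listed.

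All 55 guidance genes passed the filter on low values, and 17 were lower and 38 higher in Scl-/- cells. Over the 55 the log2 fold change (Scl-/- over WT, on log2(CPM + 0.5)) had a median of 0.18, beside 0.01 over all 13991 genes tested. A gene was called where limma gave a Benjamini-Hochberg adjusted p under 0.05 over all genes and the absolute log2 fold change was above 0.48. With genotype as the only term 1 of the 55 was called, Plxnc1, which is 1.82% of them beside 2.36% of all genes (1.57% lower and 0.793% higher). With the replicate number as a block each Scl-/- library was compared with the WT library of the same number. In that fit 16 were called (29.1%, beside 12.6% of all genes), of which 6 were lower and 10 higher (10.9% and 18.2%, beside 6.6% and 6.04%). The 6 lower genes were Plxnc1, Unc5c, Efnb2, Ntn3, Sema3a and Sema3f. The 10 higher genes were Efna3, Epha1, Ntn1, Sema7a, Epha7, Slit3, Sema6d, Sema6c, Robo4 and Robo1. Genes of chromosomes 1 and 11 were shifted as a whole, by medians of -0.29 and 0.31 on the log2 scale over 789 and 1211 genes. With each chromosome's median removed the blocked fit called 13 guidance genes, beside 10.7% of all genes, of which 5 were lower (beside 5.9%) and 8 higher (beside 4.76%). With the block and no fold threshold 22 passed (40.0%, beside 24.2% of all genes). The 3 Scl-/- values did not overlap the 3 WT values in 10 genes (18.2%, beside 21.6% of all genes), 4 lying below (beside 10.7%) and 6 above (beside 11%). Direction was shared by all 3 same-numbered pairs for 10 lower genes (18.2%, beside 26.4% of all genes) and 23 higher ones (41.8%, beside 29.8%). When each pair was left out in turn, 5 genes were called in every blocked fit: Plxnc1, Unc5c, Efnb2 and Sema3f, all lower, and Efna3, higher. Of the 16, Sema7a was lost without pair 3. Epha1, Epha7, Robo1, Robo4, Slit3, Ntn1, Ntn3, Sema3a, Sema6c and Sema6d were lost without pair 2 and also without pair 3.

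**Figure D1:**
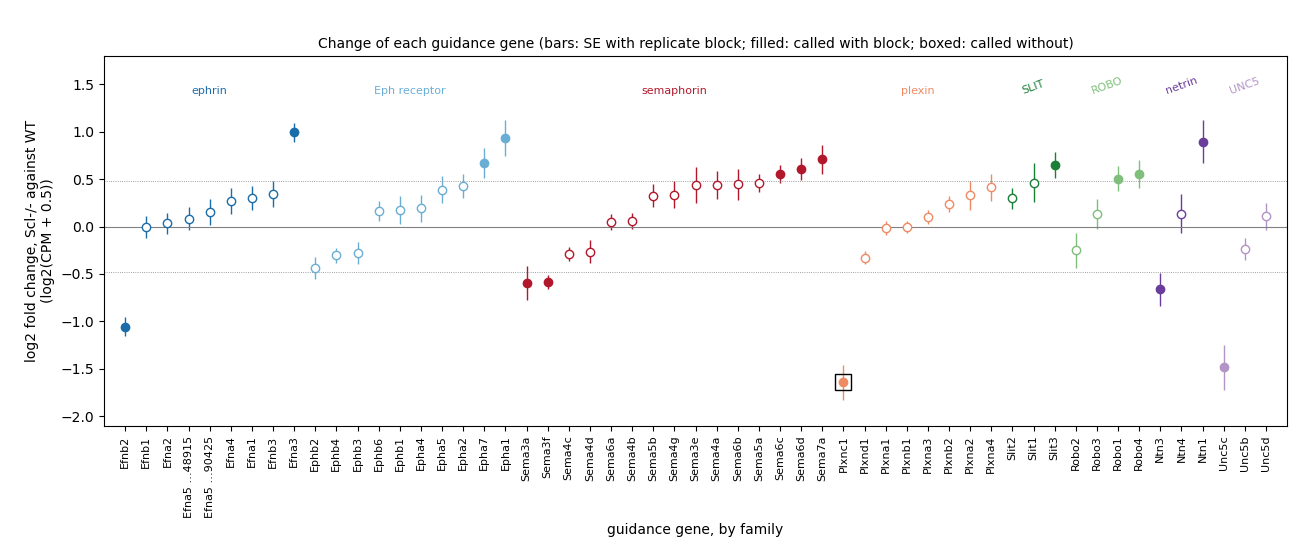
Log2 fold change (Scl-/- over WT, on log2(CPM + 0.5)) of each of the 55 guidance genes, ordered within families, with the standard error from the fit with the replicate block as bars. Filled points were called with the block, the boxed point (Plxnc1) also without it, and dotted lines mark the fold threshold; the 6 genes called lower with the replicate block lie between -1.64 and -0.58 and the 10 called higher between 0.51 and 0.99, while the others lie between -0.44 and 0.47.

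The starts of the genes that were called in every blocked fit are shown because these genes were called most steadily, and because SCL acts on DNA with E proteins at the E-box CANNTG and with GATA factors at GATAA. Each sequence is the 200 bases upstream of the RefSeq gene start, 5′ to 3′ on the gene's strand, from RefSeq's GRCm38.p6 table and placed on mm9 by a single exact match. Capitals mark CANNTG, which reads the same on both strands, and GATAA or TTATC would be capitalised likewise. Sema3f is named only.

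Efnb2, chr8:8661243-8661442, minus strand: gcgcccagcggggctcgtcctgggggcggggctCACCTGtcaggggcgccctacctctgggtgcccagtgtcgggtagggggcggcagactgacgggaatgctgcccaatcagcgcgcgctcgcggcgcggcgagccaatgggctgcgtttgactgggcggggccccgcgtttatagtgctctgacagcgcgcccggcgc
Plxnc1, chr10:94407480-94407679, minus strand: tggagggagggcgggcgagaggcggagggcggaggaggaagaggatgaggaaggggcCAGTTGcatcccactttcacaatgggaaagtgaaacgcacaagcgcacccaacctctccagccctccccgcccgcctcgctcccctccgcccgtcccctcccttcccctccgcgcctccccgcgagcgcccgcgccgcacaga
Unc5c, chr3:141128328-141128527, plus strand: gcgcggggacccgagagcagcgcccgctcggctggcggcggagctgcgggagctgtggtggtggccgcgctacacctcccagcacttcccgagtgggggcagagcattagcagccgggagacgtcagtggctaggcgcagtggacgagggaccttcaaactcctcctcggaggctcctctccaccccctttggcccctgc
Efna3, chr3:89126862-89127061, minus strand: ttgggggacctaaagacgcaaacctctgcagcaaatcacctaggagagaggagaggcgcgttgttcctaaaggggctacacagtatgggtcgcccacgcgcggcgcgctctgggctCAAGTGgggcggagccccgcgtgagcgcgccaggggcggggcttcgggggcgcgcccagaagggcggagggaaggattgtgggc

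The windows of Efnb2, Plxnc1 and Efna3 each hold 1 CANNTG, that of Unc5c holds none, and none of the 4 holds GATAA. They are GC-rich, at 73.5%, 70.5%, 67.5% and 70.5% for Efnb2, Plxnc1, Efna3 and Unc5c, beside a median of 53% over 27025 promoters. Of the 54 guidance symbols 46 had a promoter in the table, and 18 of these (39.1%) hold CANNTG, beside 57.9% of all promoters. GATAA or its reverse complement lies in 5 (10.9%, those of Efna4, Plxna2, Plxnd1, Sema4d and Unc5b), beside 18.4% of all. The 27025 promoters include those of genes not tested here and were not matched for GC content. A match in these letters is a description of the window and not a binding site. Sequence outside the window was not searched, so a window without a match does not bear on SCL binding elsewhere.

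Among the ephrin ligands, Efnb2 (ephrin-B2, the arterial ligand; ENSMUSG00000001300, mm9 chr8:8617434-8661239) was at 289, 182 and 265 CPM in WT libraries and at 173, 82.0 and 108 CPM in Scl-/- libraries. The 3 Scl-/- values all lay below the 3 WT values, and replicate 2 was the lowest of each genotype. The means were 245 ± 56.0 and 121 ± 46.8 CPM (SD, n = 3 each), a log2 fold change of -1.06 (SE 0.28, limma adjusted p = 0.115), and with the block the SE was 0.10 and the adjusted p 3.9e-04. Within the 3 pairs the log2 differences were -0.74, -1.15 and -1.29. Efnb2 was also the ephrin with the highest level per length in WT cells, at 51.2 ± 11.7 CPM per kb of exon, and at 25.3 ± 9.76 CPM per kb in Scl-/- cells it was close to Efna3 on that scale.

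Efna3 (ephrin-A3, a membrane-anchored ligand of EphA receptors; ENSMUSG00000028039, mm9 chr3:89117821-89126887) moved the other way, with 19.5, 47.9 and 29.7 CPM in WT and 41.9, 78.5 and 68.7 CPM in Scl-/- libraries. The groups overlap, because WT replicate 2 exceeded Scl-/- replicate 1, but each Scl-/- library lay above its own WT library by 0.71 to 1.20 on the log2 scale. Efna3 had the highest log2 fold change of the 55 genes, 0.99 (SE 0.35, limma adjusted p = 0.199 without the block; SE 0.10 and 5.7e-04 with it). Its exons share 344 bases with the antisense transcript Gm15998, which had a log2 fold change of 0.93 (limma adjusted p = 7.6e-04 with the block), and since the counting is not stated to use strand, reads in the shared bases cannot be assigned to one or the other. Efna1, Efna3 and Efna4 lie side by side on mm9 chromosome 3, with gaps of 32.8 and 10.4 kb. The log2 fold changes of the flanking Efna1 (a ligand for EphA2 in vessels) and Efna4, 0.31 and 0.27, did not pass the test with or without the block (limma adjusted p = 0.121 and 0.203 with it). Efna1 was at 7.60, 11.6 and 8.72 CPM in WT and at 11.5, 12.2 and 10.7 CPM in Scl-/- libraries, so that WT replicate 2 lay within the Scl-/- values.

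The other ephrins differed little. Efna2 had a log2 fold change of 0.03 and Efnb1 of -0.01, and their groups overlap. The 2 Efna5 identifiers share 2416 exon bases and cannot be separated; the estimates were 0.08 and 0.16 on the log2 scale. Efnb3 had 0.35, but it lies on chromosome 11, and with chromosome medians removed its value was 0.04. Summed over the 9 rows, ephrin levels were 148 ± 12.2 CPM per kb in WT and 144 ± 14.5 CPM per kb in Scl-/- cells (SD, n = 3 each). Both Efna5 rows are in this sum, so their shared bases count more than once.

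Among the Eph receptors none was called without the block. Epha1 (an epithelial EphA receptor) was at 13.6, 28.9 and 16.6 CPM in WT and at 17.2, 55.9 and 48.6 CPM in Scl-/- libraries. Replicate 1 differed least between the genotypes, by 0.33 on the log2 scale against 0.94 and 1.52 in replicates 2 and 3, and the groups overlap. Averaged over the pairs it was 0.93 higher on the log2 scale (SE 0.46, limma adjusted p = 0.36; 0.0111 with the block), and it was 0.62 without Scl-/- replicate 2 and 1.45 without Scl-/- replicate 1. The gene shares 160 exon bases with Zyx on the other strand, which had a log2 fold change of 0.29.

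Epha7 (an EphA receptor of the embryonic mesoderm and neural plate) was a low transcript, at 4.34, 4.86 and 2.91 CPM in WT and 5.39, 8.99 and 5.87 CPM in Scl-/- libraries. All Scl-/- values lay above all WT values, with a log2 fold change of 0.67 (limma adjusted p = 0.229; 0.019 with the block). Epha2 (the EphA receptor of remodelling endothelium) was at 11.6, 13.7 and 12.6 CPM in WT and at 17.8, 14.7 and 19.2 CPM in Scl-/- libraries. Its groups did not overlap either, and its log2 fold change of 0.43 had a limma adjusted p of 0.0425 with the block but was under the fold threshold.

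Ephb4 (the venous receptor of ephrin-B2) was the Eph receptor with the highest level per length, 34.9 ± 6.65 CPM per kb in WT and 28.1 ± 4.15 CPM per kb in Scl-/- cells (SD, n = 3 each). It was at 165, 129.7 and 191 CPM in WT and 149, 110.2 and 133 CPM in Scl-/- libraries, lower in all 3 pairs with overlapping groups. The log2 fold change of -0.30 had a limma adjusted p of 0.0295 with the block and was under the fold threshold, as was that of Ephb2, another class B receptor, at -0.44 (limma adjusted p = 0.0255 with the block). The ratio of Efnb2 to Ephb4 per kb was 1.70, 1.36 and 1.34 in WT and 1.13, 0.721 and 0.788 in Scl-/- libraries. In all 3 WT libraries the ligand was therefore above the receptor per length, and in 2 of 3 Scl-/- libraries below it. Of the other 5 Eph receptors, Epha4, Epha5, Ephb1, Ephb3 and Ephb6, none passed the adjusted p with or without the block. Epha4 lies on chromosome 1, and with chromosome medians removed its log2 fold change went from 0.19 to 0.48, with a limma adjusted p of 0.0248 with the block, though it was not called.

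By binding class, the 11 rows of class A (Efna and Epha genes) all had a log2 fold change above 0, with a range of 0.03 to 0.99 and a median of 0.31, and 3 were called higher with the block, beside 6.04% of all genes. Of the 8 class B genes 5 were lower and 3 higher, with a median of -0.14, and Efnb2 was the one called lower with the block, beside 6.6% of all genes. The summed class A level was 77.9 ± 19.97 CPM per kb in WT and 105 ± 12.9 CPM per kb in Scl-/- cells, and that of class B 136 ± 8.83 and 106 ± 19.2 CPM per kb (SD, n = 3 each). In the WT libraries class B exceeded class A by that measure, while in Scl-/- replicates 1, 2 and 3 class B was at 128, 92.5 and 97.97 CPM per kb and class A at 94.4, 119 and 101 CPM per kb, so that the order differed between libraries. The class A sums count both Efna5 rows, whose exon bases overlap. In Scl-/- replicate 3 class A was above class B only with both rows counted. These groupings were made on libraries whose values were known, and the difference between the classes was not tested.

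**Figure D2:**
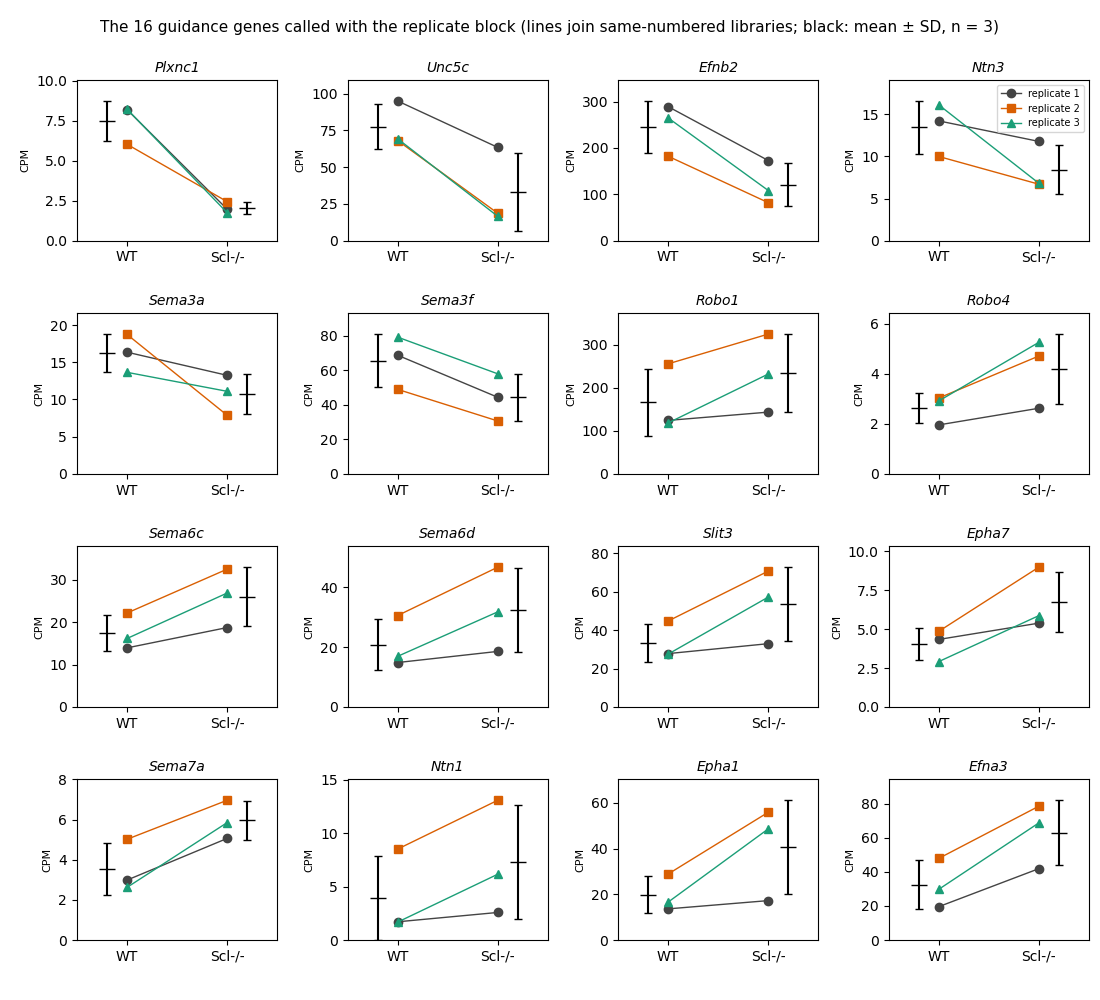
CPM of each guidance gene called with the replicate block, 1 panel per gene, with the 3 WT and 3 Scl-/- libraries as points joined by replicate number and the mean with SD beside them. Efnb2 fell from 245 to 121 CPM on average with no overlap between the genotypes, and in Efna3, Epha1, Ntn1, Robo1 and Sema6d replicate 2 stood high in both.

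Among the semaphorin ligands, the secreted class 3 members did not move together. Sema3f (a repellent of endothelium and axons that acts through neuropilin 2; ENSMUSG00000034684, mm9 chr9:107583833-107612806) was at 68.8, 49.0 and 79.3 CPM in WT and at 44.4, 30.6 and 58.0 CPM in Scl-/- libraries. Replicate 2 was lowest and replicate 3 highest in both genotypes, so that the groups overlap while the pairs differed by nearly the same amount, -0.63, -0.67 and -0.45 on the log2 scale. This gave a log2 fold change of -0.58 (SE 0.26, limma adjusted p = 0.305 without the block; SE 0.07 and 0.00155 with it), and -0.34 without Scl-/- replicate 2.

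Sema3a (the founding repellent of axons, a ligand for neuropilin 1) was at 16.4, 18.7 and 13.6 CPM in WT and at 13.2, 7.86 and 11.1 CPM in Scl-/- libraries. All Scl-/- values were below all WT values, though WT replicate 3 and Scl-/- replicate 1 were close. Sema3a had a log2 fold change of -0.60 (limma adjusted p = 0.212; 0.0479 with the block, and 0.061 with chromosome medians removed as well), and replicate 2 carried most of it, at -1.20 against -0.29 in each of the other pairs. With pair 2 or pair 3 left out the gene was not called.

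Sema3e (the ligand of plexin-D1), 422.7 kb from Sema3a on chromosome 5, had the other sign, with 4.14, 4.99 and 4.13 CPM in WT and 8.51, 5.004 and 5.40 CPM in Scl-/- libraries. The groups were separated only by the narrow gap between both replicates 2, and the highest value was Scl-/- replicate 1. Its log2 fold change of 0.44 did not pass the test (limma adjusted p = 0.376; 0.132 with the block).

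Sema7a (a membrane-linked semaphorin that binds integrins and plexin-C1) was at 2.99, 5.02 and 2.62 CPM in WT and at 5.06, 6.96 and 5.85 CPM in Scl-/- libraries. Every Scl-/- value exceeded every WT value, by a narrow margin between Scl-/- replicate 1 and WT replicate 2. Its log2 fold change was 0.71 (limma adjusted p = 0.201; 0.0137 with the block), while its receptor Plxnc1 was lower.

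The transmembrane class 6 members Sema6c and Sema6d (ligands of class A plexins) were both called higher with the block. Sema6c was at 13.9, 22.2 and 16.2 CPM in WT and 18.8, 32.6 and 26.9 CPM in Scl-/- libraries, with a log2 fold change of 0.56 (limma adjusted p = 0.00552 with the block). Sema6d was at 14.8, 30.5 and 16.9 CPM in WT and 18.5, 46.7 and 31.8 CPM in Scl-/- libraries, with a log2 fold change of 0.60 (limma adjusted p = 0.00874 with the block). For both genes the groups overlap and replicate 2 was highest in both genotypes. Without the block their limma adjusted p values were 0.292 and 0.487, and Sema6d was at 0.29 without Scl-/- replicate 2, 0.91 without WT replicate 2 and 0.95 without Scl-/- replicate 1. Of the other class 6 members, Sema6a had a log2 fold change of 0.05 and Sema6b of 0.44, neither past the test.

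Sema4c (a transmembrane ligand of plexin-B2) had the highest level per length of the semaphorins, 23.2 ± 2.03 CPM per kb in WT and 18.98 ± 2.32 CPM per kb in Scl-/- cells. It was at 95.9, 114 and 109 CPM in WT and at 77.5, 85.3 and 98.6 CPM in Scl-/- libraries, and WT replicate 1 lay just below Scl-/- replicate 3. Its log2 fold change of -0.29 (limma adjusted p = 0.0213 with the block) is, to 2 decimals, that of the median gene of chromosome 1, on which it lies, and with chromosome medians removed it was -0.00. Of the 15 semaphorins 4 were lower and 11 higher, with a median of 0.34, and 9 were higher in all 3 pairs, beside 29.8% of all genes. With the block 3 of the 15 were called higher and 2 lower, beside 6.04% and 6.6% of all genes. Their summed level was 69.5 ± 2.92 CPM per kb in WT and 65.1 ± 6.15 CPM per kb in Scl-/- cells, since the genes with the highest level per length, Sema4c and Sema3f, were among the 4 that were lower.

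Plxnc1 (the receptor of SEMA7A; ENSMUSG00000074785, mm9 chr10:94253617-94407212) was the one guidance gene called with and without the block, and it had the lowest log2 fold change of the 55. It was at 8.20, 6.04 and 8.23 CPM in WT and at 1.97, 2.44 and 1.75 CPM in Scl-/- libraries. The genotypes were far apart, with the highest Scl-/- value well below the lowest WT value. The means were 7.49 ± 1.26 and 2.05 ± 0.355 CPM (SD, n = 3 each), a log2 fold change of -1.64 (SE 0.20, limma adjusted p = 0.00948; 7.9e-04 with the block), and the pairs differed by -1.82, -1.15 and -1.96. With any single library left out the log2 fold change stayed between -1.78 and -1.56, and without WT replicate 1 the limma adjusted p was 0.0751.

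Plxnd1 (the endothelial receptor of SEMA3E) was the plexin with the highest level per length, 27.6 ± 7.34 CPM per kb in WT and 22.2 ± 6.59 CPM per kb in Scl-/- cells (SD, n = 3 each). It was at 202, 144 and 249 CPM in WT and 182, 105 and 192 CPM in Scl-/- libraries. Replicate 2 was lowest in both genotypes and the groups overlap, and the log2 fold change of -0.33 had a limma adjusted p of 0.637 without and 0.0151 with the block, under the fold threshold. It was -0.05 without Scl-/- replicate 2, -0.14 without WT replicate 3 and -0.54 without WT replicate 2. The remaining plexins included the steadiest guidance genes. Plxnb1 was at 76.7, 79.8 and 82.2 CPM in WT and 79.4, 78.9 and 79.4 CPM in Scl-/- libraries, a log2 fold change of -0.01 with an SE of 0.08, and that of Plxna1 was -0.02 with an SE of 0.12. Plxna2 and Plxna4 had values of 0.33 and 0.41 and did not pass. Plxna2 lies on chromosome 1, and with chromosome medians removed its log2 fold change was 0.61 (limma adjusted p = 0.0154 with the block). The summed plexin level was 99 ± 5.89 CPM per kb in WT and 101 ± 10.1 CPM per kb in Scl-/- cells.

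Among the netrin ligands, all were low. Ntn1 (netrin-1) was at 1.71, 8.52 and 1.68 CPM in WT and at 2.58, 13.1 and 6.17 CPM in Scl-/- libraries. Replicate 2 stood above the others in both genotypes, by 2.04 and 1.59 on the log2 scale from the mean of replicates 1 and 3. The log2 fold change of 0.90 (SE 0.69, limma adjusted p = 0.594; 0.023 with the block) was 0.59 with chromosome medians removed, where the limma adjusted p with the block was 0.0951, since Ntn1 lies on chromosome 11. Single libraries moved it widely, from 0.37 without Scl-/- replicate 2, 0.55 without WT replicate 3 and 0.56 without WT replicate 1 to 1.44 without Scl-/- replicate 1 and 1.58 without WT replicate 2.

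Ntn3 (netrin-3) was the netrin with the highest level per length, 2.74 ± 0.64 CPM per kb in WT and 1.72 ± 0.592 CPM per kb in Scl-/- cells. It was at 14.2, 9.98 and 16.1 CPM in WT and at 11.8, 6.70 and 6.80 CPM in Scl-/- libraries, where Scl-/- replicate 1 exceeded WT replicate 2. Ntn3 had a log2 fold change of -0.66 (limma adjusted p = 0.252; 0.0271 with the block), and the gene shares exon bases with Tbc1d24 and BC028777, which had -0.44 and -0.36. Ntn4 (netrin-4, a basement membrane netrin) was at 1.63, 2.67 and 1.70 CPM in WT and 2.85, 2.15 and 1.72 CPM in Scl-/- libraries, and its log2 fold change of 0.14 did not pass.

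Of the UNC5 receptors, Unc5c (a repulsive netrin receptor; ENSMUSG00000059921, mm9 chr3:141128528-141497888) was at 94.95, 68.1 and 69.3 CPM in WT and at 63.4, 18.6 and 16.6 CPM in Scl-/- libraries. The Scl-/- values all lay below the WT values, but replicate 1 was only just below, and its pair differed by -0.58 on the log2 scale against -1.84 and -2.03 in the other 2. The means were 77.4 ± 15.2 and 32.9 ± 26.5 CPM (SD, n = 3 each), with a log2 fold change of -1.48 (SE 0.47, limma adjusted p = 0.164; SE 0.24 and 0.00432 with the block). Without Scl-/- replicate 1 it was -2.09 and Unc5c was called without the block too, as was Efnb2 at -1.35.

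Unc5b (the UNC5 receptor of endothelium) had the highest level per length of all 55 genes in WT, 60.1 ± 5.64 CPM per kb, and 52.7 ± 16.4 CPM per kb in Scl-/- cells (SD, n = 3 each). It was at 366, 314 and 374 CPM in WT and at 392, 204 and 330.0 CPM in Scl-/- libraries, and Scl-/- replicate 1 was the highest value of all 6. The log2 fold change of -0.24 (limma adjusted p = 0.696; 0.195 with the block) did not pass, and without Scl-/- replicate 2 it was 0.04. The ratio of Unc5c to Unc5b per kb was 0.125, 0.104 and 0.0890 in WT and 0.0779, 0.0440 and 0.0241 in Scl-/- libraries, so that each Scl-/- ratio was below each WT ratio. A permutation test of 3 against 3 cannot go below a p of 0.1 for such a ratio, so its p is not given. Unc5d was at most 4.45 CPM in any library, with a log2 fold change of 0.11.

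**Figure D3:**
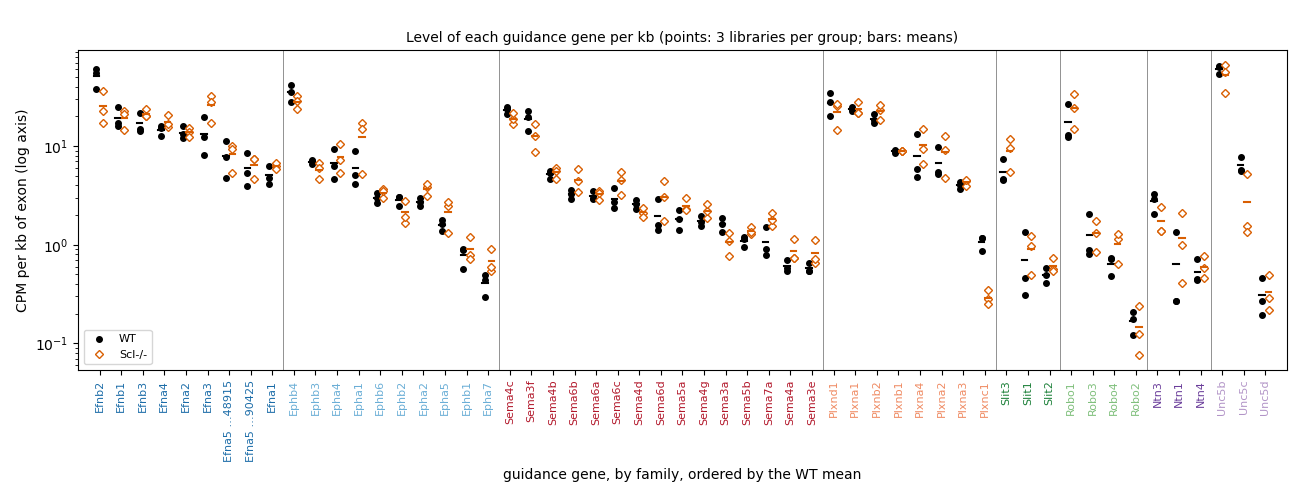
CPM per kb of exon (log axis) of each guidance gene in the 3 WT (black) and 3 Scl-/- libraries (orange), with short bars at the means and genes ordered by the WT mean within families. In most genes the points of the genotypes intermingle, while the means of Efnb2 (51.2 to 25.3), Unc5c (6.36 to 2.70) and Plxnc1 (1.06 to 0.291) are lower in Scl-/- cells.

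Of the 4 ROBO and 3 SLIT genes none was called without the block, and Robo1, Robo4 and Slit3 were called higher with it. Robo1 (the main SLIT receptor of many embryonic tissues) was at 124, 256 and 118 CPM in WT and at 143, 325 and 232 CPM in Scl-/- libraries. Replicate 2 was highest in both genotypes and the groups overlap. It was the ROBO gene with the highest level per length, 17.4 ± 8.13 CPM per kb in WT and 24.4 ± 9.50 CPM per kb in Scl-/- cells, and its log2 fold change was 0.51 (limma adjusted p = 0.57; 0.0262 with the block). With chromosome medians removed as well it was at 0.476, just under the fold threshold (limma adjusted p = 0.0437), and was not called. It was 0.86 without WT replicate 2, 0.82 without Scl-/- replicate 1, 0.31 without WT replicate 3 and 0.23 without Scl-/- replicate 2.

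Robo4 (the endothelial member of the family) was at 1.96, 3.03 and 2.91 CPM in WT and at 2.62, 4.71 and 5.26 CPM in Scl-/- libraries. It was higher in all 3 pairs, by 0.35, 0.56 and 0.76 on the log2 scale, in libraries in which the 9 endothelial markers were lower. On average the log2 fold change was 0.55 (limma adjusted p = 0.368; 0.0313 with the block). Robo3, which lies 1.6 kb from Robo4 on the other strand, had a log2 fold change of 0.13, and Robo2 had -0.25, neither past the test.

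Slit3 (a SLIT ligand of mesoderm and vessels) was the SLIT with the highest level per length, at 5.50 ± 1.63 CPM per kb in WT and 8.85 ± 3.16 CPM per kb in Scl-/- cells. It was at 27.8, 44.8 and 27.5 CPM in WT and at 33.0, 70.8 and 57.3 CPM in Scl-/- libraries, higher in all 3 pairs with overlapping groups. The log2 fold change of 0.65 (limma adjusted p = 0.335; 0.0122 with the block) became 0.34 with chromosome medians removed (0.0712 with the block), since Slit3 lies on chromosome 11, and without Scl-/- replicate 2 it was 0.41. Slit2 (the SLIT best known in vessels) was at 7.43, 8.68 and 6.24 CPM in WT and 8.57, 10.95 and 8.25 CPM in Scl-/- libraries, a log2 fold change of 0.30 that did not pass (limma adjusted p = 0.48; 0.0976 with the block). The third SLIT, Slit1, had a log2 fold change of 0.47 and did not pass.

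Several guidance genes varied between the replicate numbers in the same way in both genotypes. In 13 of the 55 (23.6%, beside 3.77% of all genes) replicate 2 lay above the mean of replicates 1 and 3 by over 0.5 on the log2 scale in both genotypes, and 7 of the 10 genes called higher with the block were among them. The 13 were Ntn1, Slit1, Plxna4, Robo3, Robo1, Epha1, Sema6d, Plxna2, Unc5d, Efna3, Epha4, Slit3 and Sema6c. Efnb2, Plxnd1 and Sema3f were the 3 (5.45%, beside 2.6%) for which replicate 2 lay below by as much in both. Replicate 2 was also the lowest in endothelial markers in both genotypes (205 CPM summed in WT and 40.2 CPM in Scl-/-). In both it was the highest in paraxial mesoderm markers (84.7 and 151 CPM), of which Dll1 alone made up 60.2 and 115 CPM. The same held for epiblast markers (156 and 239 CPM) and cardiac markers (29.2 and 47.8 CPM). Whether the make-up of the FLK1+ fraction in each differentiation bears on these guidance values was not tested.

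**Figure D4:**
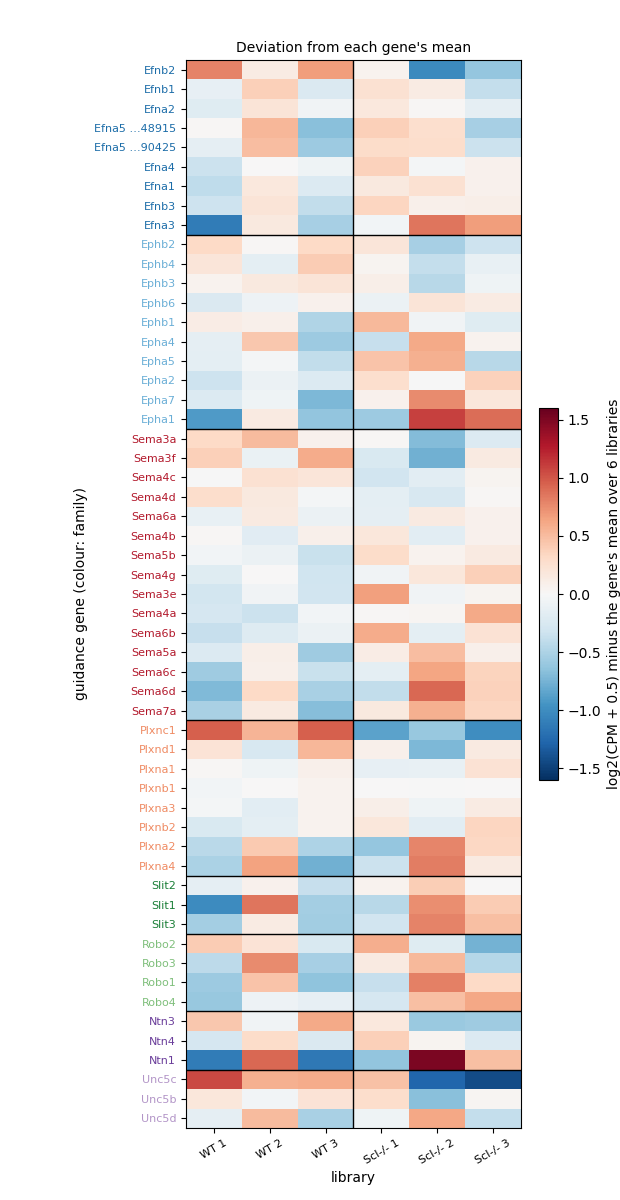
Deviation of each library from the gene's mean over the 6 libraries (log2(CPM + 0.5)) for the guidance genes, with genes in rows by family and WT and Scl-/- libraries in columns. Within each genotype replicate 2 lies above the other replicates in 13 genes by over 0.5 on average, among them Ntn1, Slit1 and Plxna4, and below them in Efnb2, Plxnd1 and Sema3f.

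Co-receptors and cytoplasmic partners of these systems were taken from a list of 61 genes, of which 56 symbols had rows in the table (58 rows). They were split nearly evenly, with 32 rows lower and 26 higher, and their log2 fold changes had a median of -0.05. Flrt3 and Mical3 are each counted under more than 1 identifier, and the Flrt3 rows hold the same values. Without the block 1 was called, Kalrn (an exchange factor that acts downstream of Eph receptors), at 143, 103 and 131 CPM in WT and 66.2, 71.3 and 74.8 CPM in Scl-/- libraries, a log2 fold change of -0.81 (limma adjusted p = 0.0289; 0.00145 with the block). With the block 9 were called, which is 15.5% of the rows beside 12.6% of all genes. Those lower were Kalrn, Vav3, Arhgef12 (a plexin-B effector), Dpysl3, Srgap2 (a ROBO partner) and Gpc1 (a heparan sulphate carrier that binds SLITs), and those higher were Crmp1 and Dpysl5 (collapsin response mediators of semaphorin signals) and Dscam (a netrin receptor). Gpc1 and Srgap2, at -0.52 and -0.53, lie on chromosome 1, and relative to its median they were at -0.23 and -0.24. Dpysl3 was lower in 2 of 3 pairs, and with chromosome medians removed it was not called (limma adjusted p = 0.0612 with the block). Of the 9 SLIT and ROBO partners 8 were lower, with a median of -0.31, while the SLIT and ROBO genes themselves had medians of 0.47 and 0.32. These medians are not adjusted for chromosome. Abl2, the partner at -0.31, lies on chromosome 1 and was at -0.03 with chromosome medians removed. Slit3, on chromosome 11, went from 0.65 to 0.34. Nrp1 (the co-receptor of SEMA3A) had a log2 fold change of -0.36 (limma adjusted p = 0.367; 0.0409 with the block), under the fold threshold, and Neo1 (neogenin) had -0.12. Nrp2 (the co-receptor of SEMA3F) had 0.09, and, lying on chromosome 1, 0.38 with chromosome medians removed (limma adjusted p = 0.0139 with the block).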

How the data were processed

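RNA-seq was analysed for 6 libraries of day 3.5 FLK1+ cells, 3 WT and 3 Scl-/-. The deposited table holds CPM per gene; the authors aligned reads to mm9 with TopHat2 2.0.8b, kept those with a mapping quality above 15, removed duplicates with SAMtools 0.1.19 and scaled with edgeR (TMM), per the paper's methods and the labels. The counting tool, annotation version and use of strand are not given in the sources used here. A gene was tested where 3 or more libraries reached 0.5 CPM (13991 of 14005; 14 removed) and log2(CPM + 0.5) was fitted with limma 3.58.1 (intensity trend) in R 4.3.3, so that folds of low genes are understated. P-values were adjusted by Benjamini-Hochberg over all genes tested, and scripts were tested on simulated data. Reads per library were inferred from the spacing of low values; this is an inference, and no count model was run. Same-numbered libraries were taken as pairs, though the library titles give only a shared number. Deviations from the genotype means correlated at 0.59, 0.76 and 0.75 within numbers and at -0.62 to -0.10 between numbers. Such deviations sum to 0 over the 3 libraries, so values between numbers lean negative where those within are positive. The design describes independent differentiations, and the blocked value is given beside the results whose call it changes. P-values measure the spread between these libraries, from one ES cell background per genotype.

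Guidance genes were described one by one where called in either fit, where in a list of vascular guidance genes, at the 3 lowest or highest fold changes, or at the highest CPM per kb of their family; Sema3c, on that list, was not analysed here. The members and lists were chosen with earlier results of these data known. The alternatives were other pseudocounts, filters, scaling by median ratios, no trend, no fold threshold, chromosome medians removed, and each library left out; leaving out pairs within the blocked fit was added after seeing the data, as was the blocked fit without a fold threshold. CPM per kb used the summed exon length from the mm9 annotation (GENCODE). No test result is given for levels, shares and ratios. The ratios of Efnb2 to Efnb1, Sema3f to Sema3a, Efna3 to Efna4 and Efna3 to Efna1 overlapped between the genotypes and are not described.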

Additional observations from a re-analysis of the deposited data

How the results depend on the processing

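With 3 libraries per genotype the calls depended on the block and on single libraries. Over all genes 330 were called, 1768 with the replicate block, 1492 with the block and chromosome medians removed, 44 (without WT replicate 1) to 384 with 1 library left out, and 1122, 1210 and 2062 with pair 2, 3 or 1 left out of the blocked fit. Of the guidance genes 1 was called, 16 with the block, 13 with the block and chromosome medians removed (Robo1, Sema3a, Ntn1 and Slit3 were lost and Plxna2 was added), and 22 with the block and no fold threshold, beside 24.2% of all genes. Leaving out 1 library gave 0 (without WT replicate 1) to 3 (without Scl-/- replicate 1), and leaving out a pair with the block gave 6 (without pair 3), 8 (without pair 2) and 20 (without pair 1). Of the partner genes 1 was called, 9 with the block, 6 with the block and chromosome medians removed, 2 with no fold threshold, 0 to 2 with 1 library left out and 9 to 10 with a pair left out of the blocked fit. At an unadjusted p under 0.05 limma gave 10 guidance genes without the block (18.2%, beside 17.7% of all genes). A lone library was assumed to vary like the rest. With 1 library left out the log2 fold change of Unc5b ran from -0.434 to 0.0368, turning sign without Scl-/- replicate 2, and that of Ntn4 from -0.0172 to 0.3202, turning sign without Scl-/- replicate 1 and also without pair 1 in the blocked fit (-0.1201); the cause was not tested. Other pseudocounts, filters, scalings and the fit without a trend changed no count of guidance genes called by more than 1.5 times. The block changed no call beyond those given in the text. Each value rests on at least 55 inferred reads, and counting error was not modelled.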
